A study of Homo sapiens with 8 samples.

Results

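RNA levels of 9 direct target genes of p53 were followed in G401, an established cell line grown from a kidney rhabdoid tumor. Its cells have lost SMARCB1, which is a core part of the SWI/SNF complexes that remodel chromatin. The genes were MDM2, TP53I3, BAX, BBC3, FAS, RRM2B, ZMAT3, TP53INP1 and SESN1, chosen by name from knowledge of the pathway and found by their Ensembl identifiers. Earlier results of these data were known when the 9 and the gene lists below were chosen. The 9 targets are among the 69215 genes of the count files, and all 9 passed the expression filter, as did 15931 genes in all. The study switched SMARCB1 back on in these cells and asked how RNA and translation responded, and only the RNA libraries were analysed here. The 8 libraries fell into 4 groups of 2. SMARCB1 DMSO and SMARCB1 Dox were G401 cells that carry SMARCB1 on a doxycycline-inducible Tet-On construct and received the solvent DMSO or 0.1 µg/ml doxycycline (Dox) for 12 h. GFP DMSO and GFP Dox were G401 cells that carry GFP on the same system and received the same treatments. All 4 groups therefore share the origin in 1 tumor and the loss of the cells' own SMARCB1, and each line stands for 1 engineered population. Per the study's methods, 6 plates were pooled for each condition and the experiment was run in duplicate. In bulk samples of this kind, fewer cells of a type and less RNA per cell cannot be told apart.

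The transcription factor p53 is a tetramer that binds a pair of 10-base units in DNA and raises transcription of genes for cell-cycle arrest, DNA repair, metabolism and apoptosis. It is kept low by the ubiquitin ligase MDM2, which is itself a target, so that the pathway is a negative feedback loop. Damage signals from kinases such as ATM and CHEK2 release p53 from MDM2. Rhabdoid tumors are known for few mutations besides the loss of SMARCB1, and the p53 pathway is usually not mutated in them.

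The DNA that p53 could read near these genes is shown first, because binding near the gene is what defines a direct target. The letters themselves were not used to choose the 9, but the genes were chosen as known direct targets. A match near them is therefore not independent of that choice. Both strands of the reference genome (hg38) were searched from 2000 bases before to 10000 bases after each gene start for 2 neighbouring 10-base units of the p53 consensus with no spacer, scored over 20 consensus positions. The best matches are given 5′ to 3′ on the strand of the gene, with the 4-base core of each unit in capitals.
ZMAT3 (chr3:179070188-179070207, minus strand): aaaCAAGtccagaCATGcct
MDM2 (chr12:68808923-68808942, plus strand): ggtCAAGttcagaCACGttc
MDM2, second site (chr12:68811195-68811214, plus strand): ggaCTTGcctagtCTTAtct
FAS (chr10:88991309-88991328, plus strand): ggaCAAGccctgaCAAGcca
TP53I3 (chr2:24086781-24086800, minus strand): ataCATCctcagaCATGttt
BAX (chr19:48955213-48955232, plus strand): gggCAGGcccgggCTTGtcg
BBC3 (chr19:47232568-47232587, minus strand): gggTCTGcccaggCATGtcc

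ZMAT3 held a pair with 0 mismatches, 2008 bases after its start and in an intron of every annotated transcript. Only 26 of 20046 protein-coding genes (0.13%) held such a pair in a window of the same length. RRM2B had 1 mismatch, and MDM2, TP53I3, BAX, BBC3, FAS and TP53INP1 had 2, a number reached or bettered by 26.9% of protein-coding genes. SESN1 had 3 mismatches, and 93.9% of protein-coding genes had 3 or fewer, so its match is no more than the background. The MDM2 pairs lie in an intron of every transcript, 746 and 3018 bases after the gene start. The TP53I3 pair lies 939 bases upstream of the gene, and the BAX and BBC3 pairs lie in an exon of a transcript other than the canonical one, 398 and 179 bases after the start. For FAS the window was set from its first RefSeq start, a choice made after seeing that the GENCODE gene reaches far upstream. From the GENCODE start the best pair had 3 mismatches. The FAS pair shown lies 511 bases after the RefSeq start, in an exon of a transcript other than the canonical one. A match is a description of the letters, and binding was not measured in these libraries. No sequence is given for RRM2B and TP53INP1, nor for SESN1, whose match is at the background.

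The libraries held 29632090 to 37597477 counts in genes, and mitochondrially encoded genes took 18.9% to 27.9% of them. SMARCB1 DMSO replicate 1 had the highest mitochondrial share and the lowest scaling factor (0.907, against 0.978 to 1.04 in the others), so it stood apart from the rest. SMARCB1 itself had 10 and 21 counts without Dox and 30474 and 29383 counts with Dox in its line and 0 in each of the 4 GFP libraries, as the labels have it. GFP DMSO and GFP Dox could not be told apart by it. RNA levels are in CPM, which are counts divided by the library size after TMM correction and put on 1 scale for all libraries, in the order replicate 1 and replicate 2. Calls were made with edgeR's quasi-likelihood test where p, adjusted by Benjamini-Hochberg over all 15931 genes, was under 0.05, and all adjusted p-values below come from that test unless another is named. With SMARCB1 re-expression, 14% of all tested genes were called, 8.33% higher and 5.69% lower. Neither edgeR after its expression filter nor DESeq2 called any gene with Dox in the GFP line, edgeR without the filter called 1, and 266 genes (1.67%) had an unadjusted edgeR p under 0.05. Markers of blood cells summed to 2.49 to 3.67 CPM per library and those of endothelium to 0.355 to 0.887 CPM, with CD3E and KDR at 0 counts. HBB, with 84 to 121 counts per library, made up nearly all of the blood sum. VWF had 5 to 19 counts and CDH5 had 0 to 16. KRT8 and KRT18 made up nearly all of the epithelial markers, which summed to 542 to 994 CPM and were lower in the SMARCB1 line, while EPCAM had at most 7 counts and KRT19 at most 2.

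Re-expression of SMARCB1 for 12 h raised RNA of 2 of the 9 targets, the death receptor FAS and the RNA-binding zinc finger protein ZMAT3, and no target was called lower. This is 22.2% of the 9, where 14% of all tested genes were called, and 2 genes are too few to set against that share. The median log2 fold change of the 9 targets was 0.152 and that of all tested genes -0.004. MDM2, the feedback ligase and the gene with the most counts of the set, did not pass the test. None of the 9 was called in the GFP line with Dox by edgeR or by DESeq2, and none had an unadjusted p under 0.05.

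**Figure D1:**
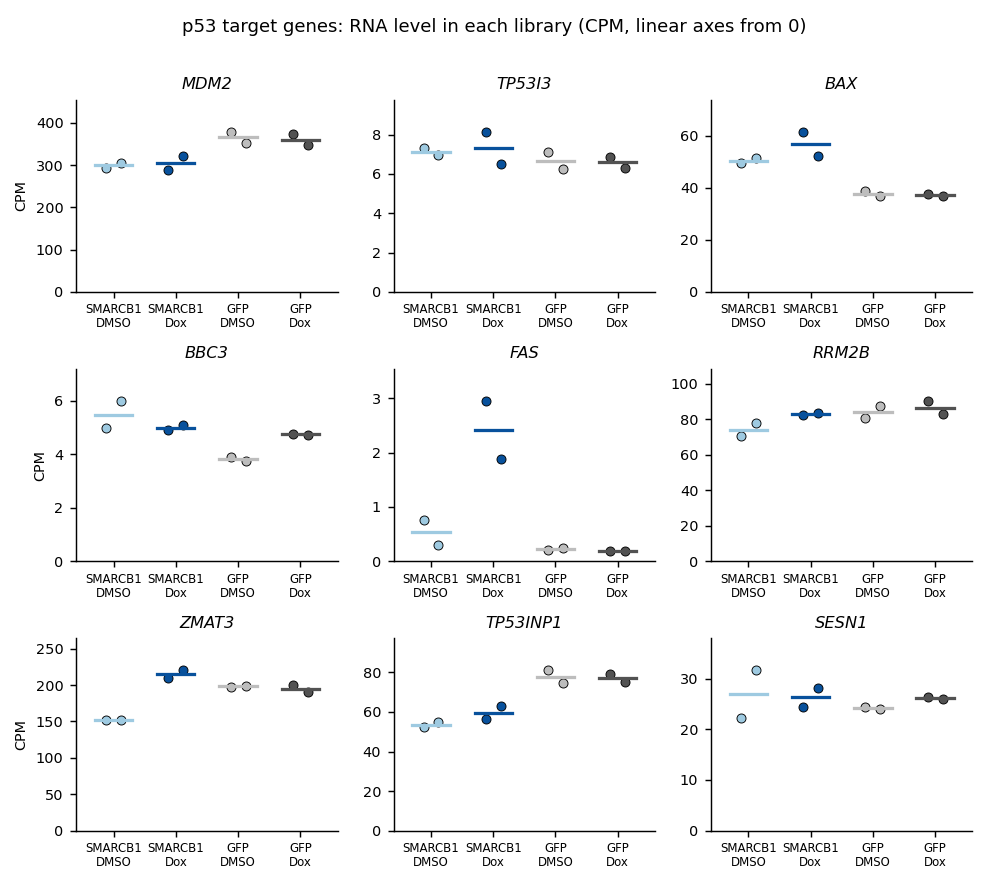
RNA level of each of the 9 p53 targets in each of the 8 libraries, in CPM on linear axes that start at 0 and differ in range between panels. Points are libraries, with replicate 1 on the left, and bars are the means of 2 libraries. FAS and ZMAT3 are higher in both SMARCB1 Dox libraries than in both SMARCB1 DMSO libraries, whereas the MDM2, TP53I3, BBC3 and SESN1 points of these groups overlap.

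FAS encodes the cell-surface receptor that starts the extrinsic route of apoptosis when FAS ligand binds it (ENSG00000026103, plus strand, chr10:88953813-89029605, hg38). It was the lowest of the 9 in every group. FAS had 0.755 and 0.303 CPM in SMARCB1 DMSO and 2.95 and 1.89 CPM in SMARCB1 Dox. In GFP cells it had 0.207 and 0.234 CPM in GFP DMSO and 0.195 and 0.191 CPM in GFP Dox. Every SMARCB1 Dox library therefore lay above all 6 others, and the GFP libraries were the lowest. Behind these levels stood 22 and 10 counts in SMARCB1 DMSO, 105 and 66 counts in SMARCB1 Dox and 6 to 9 in each GFP library, above the floor of 3 counts but few. With Dox in the SMARCB1 line FAS rose by 2.21 on the log2 scale, with a standard error of 0.411 (adjusted p = 0.000732), a 4.63-fold increase with a 95% interval of 2.56 to 8.36. All 16 alternative analyses called it, with log2 fold changes of 1.68 to 2.98 and adjusted p up to 0.041. The largest of these was obtained without SMARCB1 DMSO replicate 1, which had the higher FAS level of its pair.

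In the GFP line the FAS log2 fold change was -0.20 (95% interval -1.53 to 1.14), an interval too wide to bound the change usefully at 6 to 9 counts. The difference between the Dox effects of the lines was 2.41 on the log2 scale (95% interval 0.79 to 4.02) and was not called over all genes (adjusted p = 0.0872). Under a replicate block, which pairs libraries of equal number, the same difference was called (2.41, adjusted p = 0.0409). It was also called with that block and a GC correction together, with library totals and without the expression filter. Leaving out SMARCB1 DMSO replicate 1 gave a call as well (3.18). That made 5 of 15 alternatives, and the others, DESeq2 and RLE size factors among them, did not call it. A change of FAS in the GFP line was not detectable at this depth, which is not its absence. FAS ligand (FASLG) had 0 counts in all 8 libraries, and TNFRSF10A, a death receptor for the ligand TRAIL, also had 0. ACTA2, the smooth muscle actin gene, lies on the opposite strand and overlaps 6.5% of the annotated exon bases of FAS together with a long non-coding RNA. ACTA2 had 13 and 6 counts in SMARCB1 DMSO, 19 and 22 counts in SMARCB1 Dox and 1 to 8 in the GFP libraries, and it was not called with Dox (log2 fold change 0.90, adjusted p = 0.38). The strand option of the counting is not given in the sources used here, and a part of the FAS counts in reads of ACTA2 was not tested.

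ZMAT3 encodes an RNA-binding protein of the p53 response that acts on the stability and splicing of transcripts (ENSG00000172667, minus strand, chr3:178960121-179072215). It had 152 and 152 CPM in SMARCB1 DMSO, 210 and 220 CPM in SMARCB1 Dox, 197 and 199 CPM in GFP DMSO and 200 and 190 CPM in GFP Dox. Both SMARCB1 DMSO libraries were low, and the other 6 lay between 190 and 220 CPM. With Dox in the SMARCB1 line ZMAT3 rose by 0.50 on the log2 scale, with a standard error of 0.0771 (adjusted p = 1.09e-04), a 1.41-fold increase with a 95% interval of 1.26 to 1.58. The log2 fold change of ZMAT3 in the GFP line was -0.02 (95% interval -0.18 to 0.14). In the fit without a block, ZMAT3 was the only one of the 9 whose Dox effect was called different between the lines. Of all tested genes, 4.71% were called different, 3.07% upward and 1.64% downward. For ZMAT3 the difference was 0.52 on the log2 scale (standard error 0.109, adjusted p = 0.00618). Without GFP Dox replicate 2 this difference was 0.48 and missed the threshold (adjusted p = 0.0526), and it was called in the other 14 alternatives. The pair of p53 consensus units with 0 mismatches printed above lies in this gene, and the data hold no measurement of p53 on it.

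MDM2 was the most abundant of the 9 in CPM (ENSG00000135679, plus strand, chr12:68808177-68845544). Its levels were 293 and 306 CPM in SMARCB1 DMSO and 289 and 321 CPM in SMARCB1 Dox, which overlapped. They were 379 and 353 CPM in GFP DMSO and 373 and 347 CPM in GFP Dox, again overlapping. The log2 fold changes with Dox were 0.02 (95% interval -0.15 to 0.20) in the SMARCB1 line and -0.02 (95% interval -0.20 to 0.15) in GFP cells. As folds these are 1.02 (0.903 to 1.15) and 0.984 (0.873 to 1.11), on 8543 to 13544 counts per library. Other genes overlap 11.1% of the exon bases of MDM2 on the opposite strand, among them the carboxypeptidase M gene, and 5.3% on the same strand, and reads from these stretches are uncertain.

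Of the apoptosis genes, BAX encodes the pore-forming protein of the mitochondrial outer membrane (ENSG00000087088, plus strand, chr19:48954815-48961798). BAX had 49.5 and 51.3 CPM in SMARCB1 DMSO and 61.5 and 52.2 CPM in SMARCB1 Dox. It had 38.6 and 36.8 CPM in GFP DMSO and 37.4 and 37.0 CPM in GFP Dox. The SMARCB1 Dox libraries lay above the SMARCB1 DMSO libraries, 1 of them by little, and the change was not called (log2 fold change 0.17, 95% interval -0.01 to 0.36, adjusted p = 0.232). BBC3 encodes PUMA, a BH3-only protein that sets BAX free from its inhibitors (ENSG00000105327, minus strand, chr19:47220822-47232766). BBC3 had 4.97 and 5.98 CPM in SMARCB1 DMSO, 4.89 and 5.09 CPM in SMARCB1 Dox, 3.91 and 3.75 CPM in GFP DMSO and 4.77 and 4.73 CPM in GFP Dox. Its levels overlapped between the SMARCB1 groups, and neither Dox effect was called, with log2 fold changes of -0.14 (SMARCB1 line) and 0.31 (GFP line). TP53I3 encodes a quinone oxidoreductase tied to oxidative stress (ENSG00000115129, minus strand, chr2:24077433-24085861). It ranged from 6.23 to 8.15 CPM over the 8 libraries, and its groups overlapped in every comparison.

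RRM2B, TP53INP1 and SESN1 stand for DNA synthesis, autophagy and nutrient sensing. RRM2B encodes p53R2, the ribonucleotide reductase subunit that supplies nucleotides for repair and for mitochondrial DNA (ENSG00000048392, minus strand, chr8:102204502-102238961). RRM2B had 70.3 and 77.9 CPM in SMARCB1 DMSO, 82.1 and 83.4 CPM in SMARCB1 Dox, 80.6 and 87.5 CPM in GFP DMSO and 90.2 and 83.0 CPM in GFP Dox. The SMARCB1 Dox libraries lay above the SMARCB1 DMSO libraries, with a log2 fold change of 0.16 that was not called (adjusted p = 0.242). TP53INP1 encodes a stress-induced nuclear protein that also takes part in autophagy (ENSG00000164938, minus strand, chr8:94925972-94949378). TP53INP1 had 52.4 and 54.9 CPM in SMARCB1 DMSO, 56.2 and 63.0 CPM in SMARCB1 Dox, 81.0 and 74.8 CPM in GFP DMSO and 79.2 and 75.2 CPM in GFP Dox. Here too the SMARCB1 Dox libraries lay above their controls without a call (log2 fold change 0.15, adjusted p = 0.281). With a replicate block and a GC correction together, both were called, RRM2B at 0.24 (adjusted p = 0.0171) and TP53INP1 at 0.21 (adjusted p = 0.0382), which makes 4 of the 9, where that fit called 19.4% of all tested genes. Of all tested genes, 25.9% had both SMARCB1 Dox libraries above both SMARCB1 DMSO libraries, and 5 of the 9 targets did (FAS, ZMAT3, BAX, RRM2B and TP53INP1). SESN1 encodes a sestrin, which senses leucine and holds back the growth kinase mTORC1 (ENSG00000080546, minus strand, chr6:108984309-109094846). SESN1 had 22.2 and 31.6 CPM in SMARCB1 DMSO, 24.4 and 28.2 CPM in SMARCB1 Dox, 24.4 and 23.9 CPM in GFP DMSO and 26.3 and 25.9 CPM in GFP Dox. The SMARCB1 DMSO libraries enclosed the SMARCB1 Dox libraries, and the log2 fold change of -0.04 had a 95% interval of -0.30 to 0.22.

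**Figure D2:**
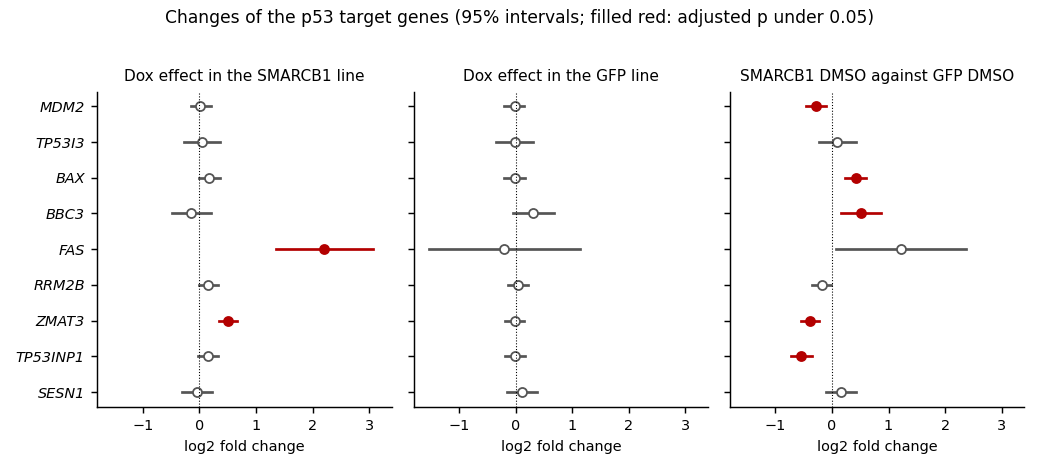
Log2 fold changes of the 9 p53 targets with 95% intervals, for the Dox effect in each line and for the 2 lines compared without Dox. Filled red points passed an adjusted p of 0.05, which are FAS and ZMAT3 in the first panel, none in the second, and MDM2, BAX, BBC3, ZMAT3 and TP53INP1 in the third, where they lie on both sides of 0.

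Without Dox, the lines themselves differed in 5 of the 9 targets, in both directions. MDM2, ZMAT3 and TP53INP1 were lower in SMARCB1 DMSO than in GFP DMSO, and BAX and BBC3 were higher. That is 55.6% of the 9, where 32% of all tested genes were called (16.3% higher and 15.7% lower), and with library totals 1 of the 9 was higher and 4 were lower. That scaling tilted the calls of all tested genes in the same way, to 10.9% higher and 23% lower. Of the lower genes, the difference was largest for TP53INP1 (log2 fold change -0.54, adjusted p = 3.37e-05), followed by ZMAT3 (-0.38, adjusted p = 0.000542) and MDM2 (-0.29, adjusted p = 0.0104). BAX was higher by 0.42 (adjusted p = 0.00105) and BBC3 by 0.52 (adjusted p = 0.0231). Among the called genes, MDM2 missed the threshold without SMARCB1 DMSO replicate 1 (-0.26, adjusted p = 0.0606) and without GFP DMSO replicate 1 (-0.24, adjusted p = 0.123). BBC3 missed it without SMARCB1 DMSO replicate 2 (0.38, adjusted p = 0.196) and without either GFP DMSO library (0.48 and 0.55, adjusted p = 0.133 and 0.0724), as well as with DESeq2 (adjusted p = 0.0879) and with library totals (adjusted p = 0.0876). RRM2B was not called (-0.18, adjusted p = 0.106), but it was with the replicate block (adjusted p = 0.0465). FAS (1.22, adjusted p = 0.0972), SESN1 (0.16, adjusted p = 0.362) and TP53I3 (0.09, adjusted p = 0.695) were not called. Without SMARCB1 DMSO replicate 2 FAS was called at 1.75 (adjusted p = 0.0233), and without SMARCB1 DMSO replicate 1 SESN1 was called at 0.39 (adjusted p = 0.0159). Both SMARCB1 DMSO libraries enter this comparison and the Dox effect in the SMARCB1 line, so the values of a gene in both are not independent. ZMAT3 was low in exactly those libraries. The epithelial keratins KRT8 and KRT18 were lower in SMARCB1 DMSO as well (-0.63 and -0.55). CDH1, the other tested epithelial marker, went the other way (0.42) on 7 to 16 counts and was not called. The part of these markers in the differences was not tested.

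Per kilobase of the canonical transcript, BAX and MDM2 were the highest of the 9 in every group. The counts cover all exons of a gene, though, so this order can change with the length used. BAX has 795 bases in its canonical transcript and 2587 in all its exons, and MDM2 has 7490 and 8306. In SMARCB1 Dox the level was 71.5 CPM per kilobase for BAX and 40.7 for MDM2, and these did not overlap. In GFP DMSO it was 47.5 for BAX and 48.8 for MDM2, which overlapped. ZMAT3, RRM2B and TP53INP1 followed in that order in every group, at 22.1, 17.6 and 13.9 CPM per kilobase in GFP DMSO and at 24.1, 17.3 and 10.6 in SMARCB1 Dox. SESN1 and TP53I3 overlapped each other in 3 of the 4 groups, at 4.75 and 4.31 in SMARCB1 DMSO, where BBC3 (2.97) and FAS (0.143) were last.

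As a description of how the 9 vary over the 8 libraries, the tested gene with the most similar log2 CPM profile was sought for each, among genes of at least 5 CPM on average. The 8 libraries form 4 groups from 2 lines, so any gene that differs between the lines or with SMARCB1 gives high values. The nearest gene to FAS was TPD52L2 (Pearson r = 0.995), to ZMAT3 SEMA3F (0.987), to MDM2 CAAP1 (0.991), to BAX PABPC4 (0.996) and to TP53INP1 YES1 (0.994). For RRM2B it was MCM4 (0.961), for SESN1 ANP32A (0.967), for TP53I3 CPTP (0.945) and for BBC3 RFC4 (0.942). None of the 9 was the nearest gene of another, though FAS and BBC3 lay under the limit of 5 CPM and could not be. Among the 9 themselves, MDM2 and TP53INP1 went together (r = 0.97), while MDM2 and BAX went opposite ways (r = -0.89).

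Of 50 further genes known as direct targets of p53, 44 were tested, and with SMARCB1 re-expression 5 were called higher and 3 lower, that is 18.2% against 14% of all tested genes. Their median log2 fold change was 0.024. TP53I11, a p53-induced membrane protein, rose by 0.95 on the log2 scale, from 46.1 ± 6.86 to 88.8 ± 15.5 CPM (SD, n = 2). GADD45A, which acts in growth arrest after DNA damage, rose by 0.56, and the pro-apoptotic CDIP1 by 0.45. NINJ1, which ruptures the plasma membrane of dying cells, rose by 0.41 and the autophagy gene DRAM1 by 0.33. The 3 genes called lower were IKBIP (-0.37), DDB2 (-0.32), the damage-recognition subunit of nucleotide excision repair, and PHLDA3 (-0.28), an inhibitor of AKT. With library totals in place of TMM, the split was 6 higher and 0 lower, against 12.5% and 3.12% of all tested genes. IKBIP was then at -0.27, DDB2 at -0.23 and PHLDA3 at -0.18, so these 3 calls depend on the scaling. Leaving out single libraries lowered the number called over all tested genes as well. TP53I11 and GADD45A kept their calls without any single library, and the others did not. CDIP1 lost its call without SMARCB1 Dox replicate 1 (0.36) or SMARCB1 DMSO replicate 1 (0.31), NINJ1 without SMARCB1 Dox replicate 1 (0.35) or SMARCB1 DMSO replicate 2 (0.36), and DRAM1 without SMARCB1 Dox replicate 2 (0.30) or SMARCB1 DMSO replicate 2 (0.29). IKBIP went to -0.14 without SMARCB1 DMSO replicate 1 and also lost its call without either SMARCB1 Dox library (-0.37 and -0.36). With DESeq2, DDB2 was not called either (adjusted p = 0.0678). PHLDA3 reached -0.19 without SMARCB1 DMSO replicate 1 and kept its call only without SMARCB1 Dox replicate 1 or SMARCB1 DMSO replicate 2, and DDB2 lost it without any 1 of the 8 (-0.28 to -0.37). TNFRSF10A, PMAIP1 (NOXA) and SPATA18 had 0 counts in all libraries.

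None of the 44 was called in the GFP line by edgeR or by DESeq2, and none had an unadjusted edgeR p under 0.05. Between the lines, the Dox effect of TP53I11 alone was called different (0.99, adjusted p = 0.00058), and with the replicate block 5 of the 44 were called different, where the block called 8.05% of all tested genes. TP53I11 was also far lower in SMARCB1 DMSO than in GFP DMSO, where it had 336 ± 26.1 CPM (log2 fold change -2.87). SMARCB1 Dox thus stayed below both GFP groups. In this comparison of the lines 11 of the 44 were higher and 10 lower, 47.7% against 32% of all tested genes, and with library totals 6 were higher and 17 lower, where of all tested genes 10.9% were higher and 23% lower. The higher genes were led by PLK2 (3.53), a polo-like kinase, with KITLG (2.14), GDF15 (1.05), GADD45A (0.58) and the TRAIL decoy receptor TNFRSF10D (0.53). Below TP53I11, the lower genes were led by PLK3 (-0.98), BTG2 (-0.60), CDIP1 (-0.59) and SFN (-0.56). KITLG, with 3 to 19 counts in these libraries, lost its call without SMARCB1 DMSO replicate 1 (1.68) and without GFP DMSO replicate 2 (1.73), and with DESeq2 (adjusted p = 0.0568).

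**Figure D3:**
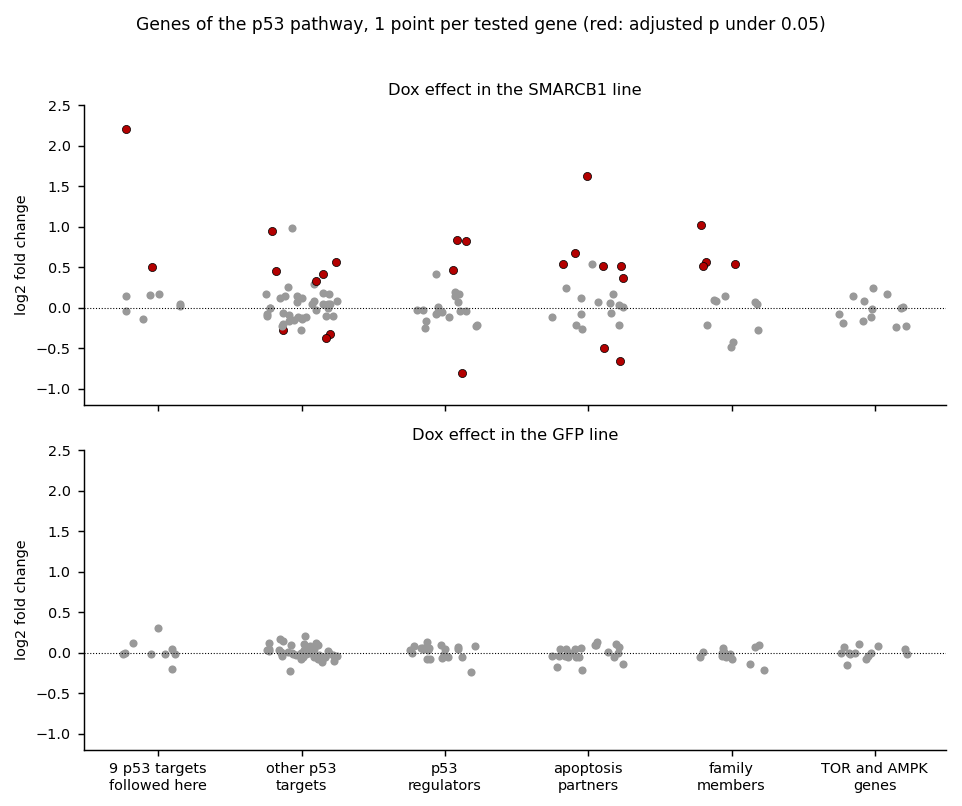
Log2 fold changes with Dox of the tested genes of each list, 1 point per gene, spread sideways at random for legibility, in the SMARCB1 line (top) and the GFP line (bottom). Red points passed an adjusted p of 0.05 and a gene on 2 lists is drawn in both. Called genes appear only in the top panel, on both sides of 0 for the other p53 targets, the regulators and the apoptosis partners, and none appear among the TOR and AMPK genes.

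Of the regulators of p53, 22 of 23 were tested, and with SMARCB1 re-expression 3 were called higher and 1 lower, 18.2% against 14% of all tested genes. HIPK2, a kinase that phosphorylates p53 in apoptosis, rose from 5.30 ± 0.074 to 9.47 ± 0.563 CPM (SD, n = 2), by 0.84 on the log2 scale. PPP1R13B (ASPP1), which directs p53 to apoptosis genes, rose by 0.83, and TP73, a relative of p53 that reads the same sites, by 0.47. CHEK2, a checkpoint kinase upstream of p53, fell from 11.2 ± 1.01 to 6.37 ± 0.223 CPM (log2 fold change -0.81, adjusted p = 0.000314). With the replicate block 4 were higher and 4 lower, while the share of all tested genes called rose to 19.8%. The Dox effect differed between the lines for HIPK2 (1.07), PPP1R13B (0.90) and CHEK2 (-0.95). CHEK2 kept this call without any single library. HIPK2 lost it without GFP Dox replicate 1 (1.10), GFP Dox replicate 2 (1.05), GFP DMSO replicate 2 (0.81) or SMARCB1 Dox replicate 2 (1.01), and PPP1R13B without any 1 of the libraries other than GFP Dox replicate 2 (0.67 to 0.92). DESeq2 did not call the PPP1R13B difference (adjusted p = 0.0677). TP73 lost its Dox call without SMARCB1 DMSO replicate 2 (0.31) and with the replicate block and GC correction (0.29). MDM4, the partner of MDM2 in holding p53, was not called (-0.21, adjusted p = 0.0798), nor was ATM (-0.23, adjusted p = 0.0846).

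The lines without Dox differed in 8 of the 22 regulators, 4 each way, or 36.4% against 32% of all tested genes. Of the higher genes, HIPK2 (0.99), PPP1R13L (0.44) and the ribosomal protein gene RPL5 (0.25) led, and of the lower ones TP73 (-0.67), TP53BP1 (-0.43) and PRMT5 (-0.32). PPP1R13L lost its call without any 1 of the 4 DMSO libraries (0.37 to 0.52). RPL5 lost it without either GFP DMSO library (0.24 and 0.25) or SMARCB1 DMSO replicate 2 (0.22), TP53BP1 without SMARCB1 DMSO replicate 1 (-0.25) or GFP DMSO replicate 2 (-0.22), and PRMT5 without GFP DMSO replicate 2 (-0.29). With DESeq2, TP53BP1 (adjusted p = 0.173) and PPP1R13L (adjusted p = 0.0843) were not called. With library totals 1 was higher and 4 were lower, against 10.9% and 23% of all tested genes.

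The apoptosis partners of BAX, BBC3 and FAS held the largest share of calls of the lists in this comparison. Of 23 genes, 22 were tested, and 6 were called higher and 2 lower with SMARCB1 re-expression, 36.4% against 14% of all tested genes. The median of the 22 was 0.062 on the log2 scale, since most of them moved little. All 8 called genes belong to the BCL2 family, in which BCL2, BCL2L1 and BCL2L2 protect the mitochondrial membrane, BAK1 and BOK can open it, and BMF, HRK and BCL2L11 (BIM) are BH3-only proteins that oppose the protectors. BMF rose from 0.836 ± 0.0183 to 2.60 ± 0.976 CPM (SD, n = 2), by 1.63 on the log2 scale (adjusted p = 0.000546). BCL2L11 rose from 27.4 ± 3.81 to 44.1 ± 3.22 CPM, by 0.68, and BAK1 from 18.5 ± 1.04 to 26.9 ± 4.28 CPM, by 0.54. BCL2 fell from 70.7 ± 2.9 to 44.9 ± 2.64 CPM (log2 fold change -0.66, adjusted p = 9.48e-06) and BCL2L2 from 27.1 ± 0.539 to 19.2 ± 1.12 CPM (-0.50). BOK and HRK were called higher at 0.52 each, as was the protector BCL2L1 at 0.37. Family members that were not called included BAD (-0.08), BID (0.17), BIK (0.54) and the protector MCL1 (0.06).

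**Figure D4:**
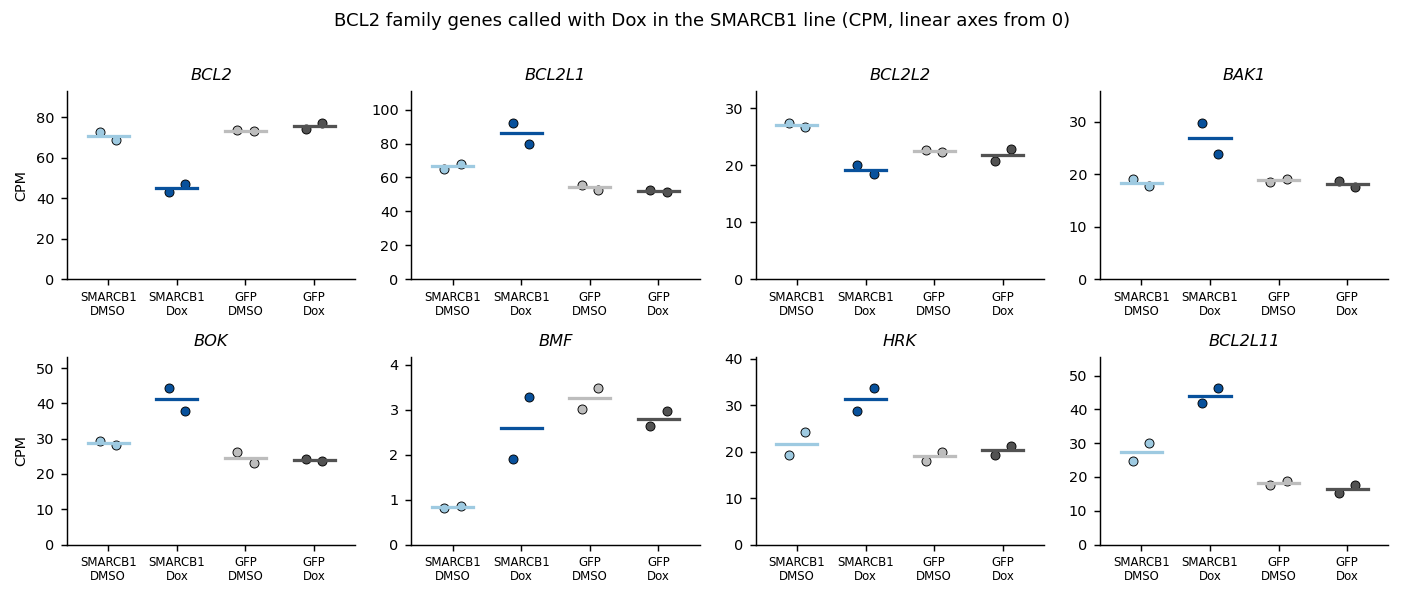
RNA level in CPM of the 8 BCL2 family genes called with Dox in the SMARCB1 line, in each of the 8 libraries, on linear axes that start at 0 and differ in range. Points are libraries, with replicate 1 on the left, and bars are means of 2 libraries. BCL2 and BCL2L2 are lower in SMARCB1 Dox than in the other 6 libraries, BCL2L11, BAK1, BOK, HRK and BCL2L1 are higher, and BMF rises from its low level in SMARCB1 DMSO to near that of the GFP line.

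Between the lines, the Dox effect was called different for BMF (1.84), BCL2L11 (0.83), BAK1 (0.59), BOK (0.56) and BCL2 (-0.70), and not for BCL2L1 (0.42, adjusted p = 0.0525), BCL2L2 (-0.46, adjusted p = 0.0698) or HRK (0.42, adjusted p = 0.189). With the replicate block 6 of the 22 were called higher and 2 lower in this difference, against 4.87% and 3.18% of all tested genes. BMF, BCL2L11 and BCL2 kept the call without any single library. BAK1 lost it without SMARCB1 Dox replicate 1 (0.42), SMARCB1 DMSO replicate 2 (0.53) or any 1 of the GFP libraries (0.54 to 0.64), and BOK without SMARCB1 Dox replicate 1 (0.45), SMARCB1 DMSO replicate 2 (0.54), GFP DMSO replicate 1 (0.47) or either GFP Dox library (0.59 and 0.55), and also with the replicate block and GC correction together (0.31, adjusted p = 0.0942). The Dox call of BAK1 was lost without SMARCB1 Dox replicate 1 (0.37, adjusted p = 0.0746), as was that of BCL2L1 (0.26, adjusted p = 0.113). That of HRK was lost without SMARCB1 DMSO replicate 1 (0.37, adjusted p = 0.0882) and without SMARCB1 Dox replicate 2 (0.40, adjusted p = 0.0648). In the comparison of the lines without Dox, 5 of the 22 were higher and 6 lower, 50% against 32% of all tested genes, and with library totals 2 were higher and 7 lower, against 10.9% and 23%. The higher ones included BCL2L11 (0.60) and BCL2L1 (0.30), and the lower ones were led by BMF (-1.96), BAD (-0.54) and the caspase inhibitor XIAP (-0.46). BCL2L1 lost this call without SMARCB1 DMSO replicate 2 (0.27) or GFP DMSO replicate 2 (0.26), and BAD without SMARCB1 DMSO replicate 2 (-0.49) or GFP DMSO replicate 2 (-0.51).

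Close relatives of the 9 were followed as a further list of 15, of which 13 were tested, 4 were called higher with SMARCB1 re-expression and none lower (30.8% against 14%). SESN3, a sestrin like SESN1, rose from 3.39 ± 0.616 to 6.88 ± 0.991 CPM (SD, n = 2), by 1.02 on the log2 scale, and TP53INP2, the relative of TP53INP1 in autophagy, rose from 34.8 ± 2.82 to 51.5 ± 4.23 CPM, by 0.57. The other two were BAK1 and BOK, counted above. The Dox effect of all 4 was also called different between the lines (SESN3 at 1.15 and TP53INP2 at 0.55). That is 30.8% of the 13, against 4.71% of all tested genes. SESN3 lost this call without SMARCB1 DMSO replicate 1 (0.98), SMARCB1 Dox replicate 2 (1.00), GFP DMSO replicate 2 (1.10) or GFP Dox replicate 1 (1.05), and TP53INP2 without SMARCB1 DMSO replicate 1 (0.47), SMARCB1 Dox replicate 2 (0.47), GFP DMSO replicate 1 (0.53) or GFP Dox replicate 1 (0.53). With the replicate block the Dox effect in the SMARCB1 line was called for 4 higher and 3 lower genes of this list, against 11% higher and 8.75% lower of all tested genes. The relatives SESN2 (0.15, adjusted p = 0.298) and RRM2 (0.07, adjusted p = 0.637) did not pass the test. The lines without Dox differed in the death receptors TNFRSF1A (0.33) and TNFRSF10B (0.28), 2 of 13 or 15.4%, against 32% of all tested genes. Both lost the call with library totals, where 0 of the 13 were higher and 1 lower, against 10.9% and 23% of all tested genes. They also lost it without SMARCB1 DMSO replicate 1 (0.15 for each) and without GFP DMSO replicate 2 (0.27 and 0.24). Downstream of the sestrins, none of 13 tested genes of the GATOR and AMPK complexes was called with Dox in the SMARCB1 line by edgeR or by DESeq2, although 4 had an unadjusted edgeR p under 0.05, as had 26% of all tested genes, and 2 were called lower with the replicate block, which called 8.75% of all tested genes lower. Of these 13, only PRKAB2 differed between the lines without Dox (-0.32, adjusted p = 0.00761), 7.69% against 32% of all tested genes. PRKAB2 lost the call without GFP DMSO replicate 1 (-0.26). In the GFP line no gene of these lists was called with Dox by edgeR or by DESeq2, and none had an unadjusted edgeR p under 0.05.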

How the data were processed

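RNA of G401 cells was measured in 8 libraries, and groups and replicate numbers were taken from the sample titles. The deposited values are raw read counts per gene, produced by the authors using STAR and HTSeq on hg38 (intersection-strict mode, exons, GENCODE v42). Versions and the strand option are not given in the sources used here, and the labels name a ribosome profiling kit where the study's methods name a directional RNA kit. Reads of overlapping genes could be lost or, without strand, counted together. Entries that name no gene held 27% to 29.3% of reads and were left out. Per library, 3 counts correspond to 0.0782 to 0.103 CPM. That floor and all intervals cover the error stated, not PCR copies.

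Symbols, gene bounds and canonical transcripts came from GENCODE v44 on hg38, and first RefSeq starts from the RefSeq promoter table. edgeR 4.0.16 (R 4.3.3) was run on the counts with its default expression filter, TMM scaling and 1 quasi-likelihood fit of all 8 libraries, for Dox against DMSO in each line, the difference between these effects, and the lines without Dox. The threshold for a call was 0.05, with p adjusted by Benjamini-Hochberg over all tested genes. The steps were run on counts simulated with independent libraries, which cannot show how variation shared by same-numbered libraries affects the calls. The 16 alternatives were DESeq2 1.42.0, RLE size factors, library totals, no expression filter, only the libraries compared, a replicate block, that block with a GC correction, no mitochondrially encoded genes, and each library left out. The search for unspaced p53 site pairs was chosen after pairs with spacers of up to 13 bases had been listed, as was the RefSeq start for FAS.

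The 9 targets and all gene lists were chosen with earlier results of these data known. Named genes were the 9, SMARCB1, the 5 higher and 5 lower called genes with the largest change among the other p53 targets, up to 3 each way from the other lists, and the most alike gene of each target. A gene that the rule names is not reported here. Others (FASLG, TNFRSF10A, PMAIP1, SPATA18, ACTA2, MDM4, ATM, SESN2, RRM2, BOK, HRK, BCL2L1, BID, BIK, MCL1 and marker genes) were named after their values were seen. Deviations from the group means of same-numbered libraries correlated at 0.135 to 0.439 over all 6 pairs of groups, so these libraries shared part of their variation. The main fit had no replicate block and left this out, and the block was run as an alternative. With the block, 19.8% of all tested genes were called with re-expression, in place of 14%. In the difference between the Dox effects it called 8.05%, in place of 4.71%. Nothing says that the duplicates were independent cultures, so p-values measure the spread between these libraries only.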

Additional observations from a re-analysis of the deposited data

Results flagged for a closer look

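The Dox effect differed between the SMARCB1 line and the GFP line by the interaction test for 12 genes of the p53 lists, which is what brought them here, and all values are differences of log2 fold changes (edgeR, called at an adjusted p of 0.05, where 4.71% of all tested genes were called). Of the 9 p53 targets this was ZMAT3 (0.52), and of the other targets TP53I11 (0.99). Among the regulators it was HIPK2 (1.07), PPP1R13B (0.90) and CHEK2 (-0.95). Among the BCL2 family it was BMF (1.84), BCL2L11 (0.83), BAK1 (0.59), BOK (0.56) and BCL2 (-0.70). Among the relatives of the targets it was SESN3 (1.15) and TP53INP2 (0.55). FAS, with the largest difference of the 9 (2.41), did not pass in this fit, which had no block (adjusted p = 0.0872). The FAS difference was called in 5 of 15 alternatives, among them the replicate block (adjusted p = 0.0409).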

How the results depend on the processing

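Each group had 2 libraries, and FAS rested on 6 to 105 counts. Of the 9 p53 targets, FAS and ZMAT3 were called with SMARCB1 re-expression in all 16 alternatives, and the replicate block with a GC correction added RRM2B and TP53INP1, giving 4. In the difference between the Dox effects, 2 targets were called with library totals, without the expression filter, with the replicate block and with the block and GC correction, each adding FAS, and 0 to 2 when single libraries were left out (0 without GFP Dox replicate 2). Between the lines without Dox, fewer of the 9 were called when either GFP DMSO library was left out. The share of all tested genes called also fell then. When single libraries were left out, fewer of all tested genes were called with re-expression, and of the other p53 targets fewer than 8. In the difference 1 to 3 were called then, 2 with library totals or without the expression filter, 5 with the replicate block and 3 with the block and GC correction. The block alone changed no call of the 9 targets other than those of FAS in the difference and RRM2B between the lines, and ended no call of a list gene. Library totals moved the median change of all genes to 0.088 with re-expression, 0.071 in the difference and -0.101 between the lines (log2), so directions near these sizes depend on the scaling.

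Signs turned only for targets that were not called. In the SMARCB1 line with Dox, leaving out single libraries gave -0.053 to 0.099 for MDM2, -0.126 to 0.193 for TP53I3, -0.261 to 0.004 for BBC3 and -0.267 to 0.245 for SESN1, the block with GC correction gave -0.092 for TP53I3, -0.013 for BAX and 0.011 for SESN1, and library totals gave 0.05 for SESN1. In the GFP line the ranges were -0.081 to 0.028 for MDM2, -0.123 to 0.078 for TP53I3, -0.06 to 0.014 for BAX, -0.022 to 0.099 for RRM2B, -0.061 to 0.014 for ZMAT3 and -0.074 to 0.044 for TP53INP1, which was 0.002 with library totals. In the difference they were -0.029 to 0.125 for MDM2, -0.102 to 0.215 for TP53I3 and -0.382 to 0.13 for SESN1, and the block with GC correction gave -0.08 for TP53I3 and 0 for BAX. Between the lines they were -0.009 to 0.192 for TP53I3 and -0.121 to 0.391 for SESN1, and library totals gave -0.023 for TP53I3. The cause of these changes was not tested.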
